A study of Mus musculus with 2 samples.

Results

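The 10 autophagy genes described here are Ulk1, Becn1, Atg3, Atg5, Atg7, Atg12, Atg16l1, Atg4b, Map1lc3b and Sqstm1, taken as a list of names from among 22359 protein-coding genes with a TSS on the nuclear chromosomes of mm9. All 10 were found in the annotation. Chromatin of wild type mESCs of the E14 line, on the 129P2/OlaHsd background, was precipitated with a rabbit polyclonal antibody raised against a fragment of Msl1 or of Nsl1, and each antibody gave 1 library. Msl1 and Nsl1 are subunits of the MSL and NSL complexes, which share the histone acetyltransferase Mof. Both libraries carry the same genotype, line and passage. The cells are a single male line that was kept on feeder cells and grown without them for the last passage. After repeated positions were removed, 19483142 Msl1 reads (50 bases long) and 24883001 Nsl1 reads (36 bases long) remained. With 1 library per antibody there is no replicate check, each comparison of Msl1 with Nsl1 compares 2 libraries, and no p-value is given. All intervals are 95% intervals and cover counting error only.

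Autophagy is the route by which a cell encloses cytoplasm, damaged organelles or protein aggregates in a double membrane and delivers them to the lysosome. The kinase Ulk1 starts the process, and Becn1 belongs to the lipid kinase complex that marks the forming membrane. Atg7 is the E1-like enzyme of a pair of ubiquitin-like conjugation systems, and Atg3 is the E2-like enzyme for Map1lc3b. These systems join Atg12 to Atg5, which then acts with Atg16l1, and attach a lipid to Map1lc3b after the protease Atg4b has trimmed it. Sqstm1, also known as p62, is a cargo receptor that binds ubiquitinated proteins and Map1lc3b. Tfeb, a regulator of lysosome and autophagy genes, binds the CLEAR element, a form of the E-box, and Sqstm1 is a known target of Nrf2 through antioxidant response elements.

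The sequences just upstream of some of the TSSs were read from mm9 (NCBIM37), 5′ to 3′ along the gene and up to 150 bases long. They were cut short where an exon of a divergent gene begins. Capitals mark matches, on either strand, of the motifs listed after them. Atg7 and Atg5 are shown because the Nsl1 reads of both were centred on the TSS, at over 10 times the local level, and Atg3 for its repeated CLEAR letters. Map1lc3b and Sqstm1 are shown for their Msl1 reads, Ulk1 because its Msl1 reads lay far downstream, and Atg4b because 2 annotated starts gave different results. Becn1, Atg12 and Atg16l1 are not shown, although Atg12 and Atg16l1 had the highest Msl1 ratios of the 10 genes.
Atg7 (chr6:114592999-114593148, + strand): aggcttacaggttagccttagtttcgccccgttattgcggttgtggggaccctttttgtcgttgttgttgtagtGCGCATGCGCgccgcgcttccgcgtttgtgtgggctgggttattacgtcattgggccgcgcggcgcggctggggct
Atg5 (chr10:43988014-43988163, + strand): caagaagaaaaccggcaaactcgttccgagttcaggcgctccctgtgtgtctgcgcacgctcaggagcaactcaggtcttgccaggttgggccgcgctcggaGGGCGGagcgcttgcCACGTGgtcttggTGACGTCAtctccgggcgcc
Atg3 (chr16:45158820-45158897, + strand): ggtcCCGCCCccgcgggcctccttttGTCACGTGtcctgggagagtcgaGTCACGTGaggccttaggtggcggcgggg
Map1lc3b (chr8:124114218-124114367, + strand): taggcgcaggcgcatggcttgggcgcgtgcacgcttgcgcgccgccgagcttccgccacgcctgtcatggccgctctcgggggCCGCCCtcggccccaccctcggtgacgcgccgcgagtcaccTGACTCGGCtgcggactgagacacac
Sqstm1 (chr11:50024330-50024391, - strand): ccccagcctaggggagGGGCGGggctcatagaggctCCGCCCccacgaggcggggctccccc
Ulk1 (chr5:111239117-111239266, - strand): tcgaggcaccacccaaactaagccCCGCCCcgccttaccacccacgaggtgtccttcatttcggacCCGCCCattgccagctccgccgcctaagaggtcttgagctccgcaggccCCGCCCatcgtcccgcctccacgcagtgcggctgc
Atg4b, the upstream TSS (chr1:95647927-95648076, + strand): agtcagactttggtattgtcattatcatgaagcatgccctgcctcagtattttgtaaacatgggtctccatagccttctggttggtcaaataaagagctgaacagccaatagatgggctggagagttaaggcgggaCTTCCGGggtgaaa
Atg4b, the second TSS (chr1:95651416-95651481, + strand): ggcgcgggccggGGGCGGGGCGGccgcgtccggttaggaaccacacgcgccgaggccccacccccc

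The motifs were searched from 250 bases before to 50 bases after each TSS. For Atg4b the counts use the upstream TSS. The E-box CACGTG was found at Atg3 and Atg5, and in 7.70% of all 22359 promoters. GTCACGTG, a part of the CLEAR element that contains the E-box, was found at Atg3 only among the 10 genes and in 2.58% of all promoters. It occurs at 2 places in Atg3, starting at positions -52 and -29 from the TSS. TGACGTCA, the CRE, was found at Atg5 and Becn1 and in 2.30% of all promoters. The ETS motif CCGGAAG was found at Atg16l1, Atg3, Atg4b and Atg7, and in 10.8% of all promoters. TGACNNNGC, the antioxidant response element, was found at Atg12 and Map1lc3b and in 12.5% of all promoters. The GC box GGGCGG was found at 6 of the 10 genes and in 43.9% of all promoters. At the second TSS of Atg4b, which is not counted here, GC boxes began at positions -232, -172, -54 and -49. No ETS match was found there. GCATGCGC, a part of the NRF1 motif that was added after the sequence of Atg7 had been read, was found at Atg7 only among the 10 genes and in 3.31% of all promoters. A match of letters is a description and shows no binding of a factor.

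To ask how much of each complex lay at these genes, the reads within 500 bases of the TSS were divided by the local level, defined for each library as its reads per kb at distances between 5 kb and 50 kb upstream and downstream. In long genes such as Atg7 (217 kb) and Atg5 (95.9 kb) the downstream side of this window lies inside the gene. Reads in the gene body then count towards the local level. Of the 10 genes, Nsl1 was highest at Atg7, Atg16l1 and Atg5, whereas Msl1 was highest at Atg12, Atg16l1 and Atg7 and stayed within a narrower range. The order for Msl1 depended on the setting. Relative to the genome level Sqstm1 was highest for Msl1 (10.4), with Atg7 at 3.09 and Atg12 and Atg16l1 at 7.80, and with 1000 bases on each side of the TSS Atg3 (4.45) lay between Atg12 (5.14) and Atg16l1 (3.71), with Atg7 at 3.51. The ratio was between 1.44 and 23.1 for Nsl1, with a median of 3.61, and between 1.43 and 5.90 for Msl1, with a median of 3.46. Over the 21739 protein-coding TSSs with at least 90 reads in the local window of each library, the median was 1.71 for Nsl1 and 1.84 for Msl1. A ratio of 3 or more was found at 6 of the 10 genes for Msl1, where 23.3% of all tested TSSs reached it, and at 6 of the 10 genes for Nsl1, where 24.2% did. Both libraries reached it at Atg3, Atg7, Atg12 and Atg16l1, and at 11.6% of all tested TSSs. For Nsl1 a ratio of 10 or more was found at Atg7, Atg16l1 and Atg5, 3 of the 10 genes, and at 1.96% of all tested TSSs. The fold of 10 was chosen after the values had been seen.

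**Figure D1:**
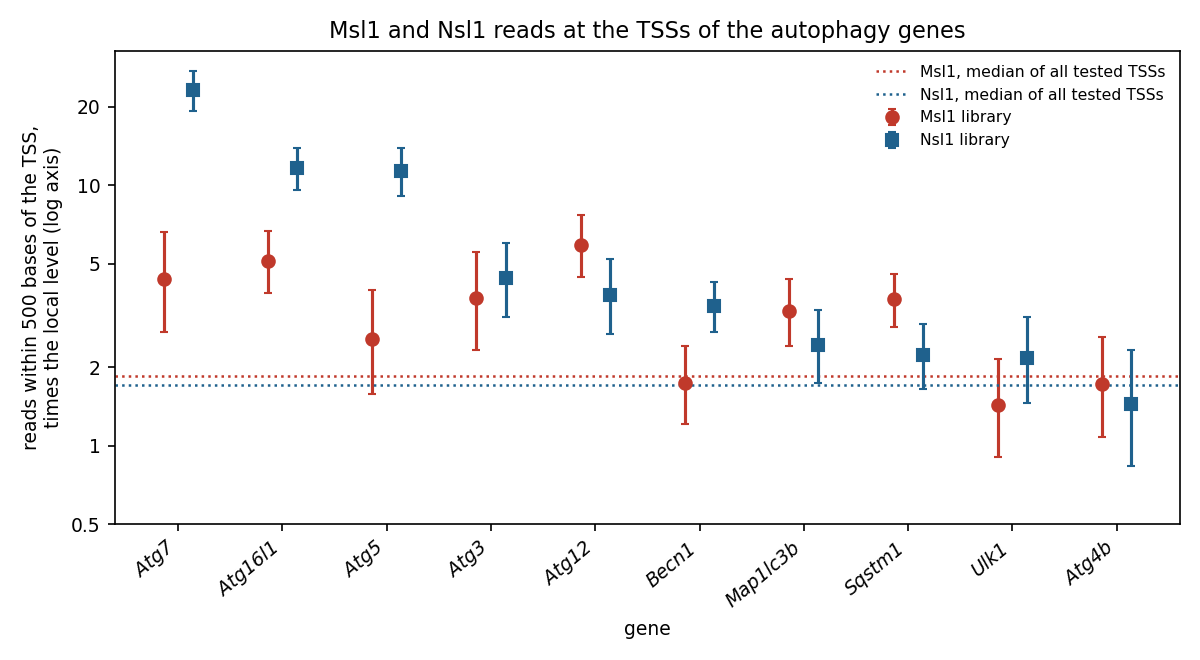
Reads within 500 bases of the TSS divided by the local level (log axis) for each autophagy gene, ordered by the Nsl1 value. Circles are the Msl1 library and squares the Nsl1 library, bars are 95% intervals for counting error, and dotted lines are the medians of all tested TSSs (1.84 for Msl1 and 1.71 for Nsl1). The Nsl1 values spread from 1.44 to 23.1 and the Msl1 values from 1.43 to 5.90.

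Atg7, the E1-like enzyme that activates both Atg12 and the Map1lc3b family, had the highest Nsl1 ratio of the 10 genes. Its TSS lies on chromosome 6 at 114593149 of a gene of 217 kb, with a first exon of 24 bases. There were 158 Nsl1 reads within 500 bases, 23.1 times the local level (19.3 to 27.6), and 23 Msl1 reads were counted, 4.36 times the local level (2.74 to 6.62). The Nsl1 value was higher than at 99.9% of all tested TSSs. The highest Nsl1 window of 200 bases was centred on the TSS, with 90 reads and 65.9 times the local level (52.2 to 82.3). The highest Msl1 window of 200 bases lay from 300 to 500 bases downstream, with 12 reads and 11.4 times the local level (5.83 to 20). Here and below, the highest window was picked as the maximum within 2 kb of the TSS, in steps of 50 bases. Its value and interval do not allow for that choice and are biased upward. Around Atg7 both local levels were below the level of the genome, 0.710 times it for Msl1 and 0.720 times it for Nsl1. Relative to the genome level, the Nsl1 value at Atg7 was 16.6.

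Atg16l1 and Atg5, partners in the complex that places the lipid conjugation on the membrane, followed. At Atg16l1 (TSS on chromosome 1 at 89652661) 134 Nsl1 reads were counted, 11.6 times the local level (9.62 to 13.9), and at Atg5 (chromosome 10, 43988164) 101 Nsl1 reads, 11.3 times the local level (9.12 to 14.0). These 2 values do not differ beyond counting error, and both lie below the interval of Atg7. There were 58 Msl1 reads at Atg16l1, 5.13 times the local level (3.87 to 6.68), and 21 reads at Atg5, 2.57 times the local level (1.58 to 3.97). The Nsl1 maximum of Atg16l1 lay between positions -250 and -50 (71 reads, 30.8 times the local level), where other transcripts of the gene begin at up to 216 bases upstream. That of Atg5 was centred on the TSS (54 reads, 30.3 times the local level). At Atg5 the highest Msl1 window of 200 bases lay between positions -2000 and -1800 with 8 reads.

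With a window of 1000 bases on each side of the TSS, the Nsl1 ratio was 12.1 at Atg7, 6.45 at Atg16l1 and 6.51 at Atg5. These genes remained the 3 highest for Nsl1 in that setting.

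Atg12, the ubiquitin-like protein, and Atg3, the E2-like enzyme that transfers the Map1lc3b family to lipid, share their promoters with a gene on the other strand. At Atg12 (chromosome 18, 46901233) the TSS of Ap3s1 lies upstream at position -338, and at Atg3 (chromosome 16, 45158898) that of Slc35a5 lies at position -79. Atg12 had the highest Msl1 ratio of the 10 genes, with 58 reads and 5.90 times the local level (4.45 to 7.71), and an Nsl1 ratio of 3.79 (39 reads, 2.68 to 5.22). The Msl1 value was above that of 98.6% of all tested TSSs. At Atg3, 24 Msl1 reads were counted, 3.68 times the local level (2.34 to 5.53), and 41 Nsl1 reads, 4.4 times the local level (3.13 to 6.02). In the window from 500 to 2000 bases upstream, which holds the start of the divergent gene's body, Msl1 was at 3.73 times the local level at Atg12 and 2.86 times at Atg3. Nsl1 was at 1.17 and 2.07 times the local level there. In the other 8 genes the Msl1 level in this window was between 0.354 times (Becn1) and 2.45 times (Atg5) the local level. They include Sqstm1, where Mgat4b begins at position -63 on the other strand and the Msl1 level was 0.915 times. The window held 28 Msl1 reads at Atg3 and 30 at Atg5, so Atg3 does not stand apart from Atg5. No other protein-coding TSS is annotated within 2 kb of that of Atg5. For the divergent pairs, reads of either gene cannot be told apart within the window at the TSS.

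Becn1, of the lipid kinase complex, and Ulk1, the starting kinase, had Msl1 ratios below 2 at the TSS itself, with local Msl1 levels at 2.79 times (Becn1) and 2.16 times (Ulk1) the genome level. At Becn1 (chromosome 11, 101163600) 36 Msl1 reads were counted, 1.74 times the local level (1.21 to 2.41), and 87 Nsl1 reads, 3.43 times the local level (2.74 to 4.25). At Ulk1 (chromosome 5, 111239116) 23 Msl1 reads were counted, 1.43 times the local level with an interval that includes 1 (0.906 to 2.16), and 30 Nsl1 reads, 2.17 times the local level (1.46 to 3.11). The Msl1 reads of Ulk1 lay further into the gene. From 500 to 2000 bases downstream it held 105 Msl1 reads, 4.36 times the local level and the highest of the 10 genes, beside 36 Nsl1 reads and 1.73 times the local level. The highest Msl1 window lay from 500 to 700 bases, just after the end of the first exon of 484 bases, with 28 reads and 8.73 times the local level (5.78 to 12.7). From 2 to 5 kb downstream Msl1 was still at 2.47 times the local level in Ulk1, and Nsl1 at 1.11 times. With 1000 bases on each side, the Msl1 ratio of Ulk1 was 2.37 and the Nsl1 ratio of Becn1 was 2.27, below 3. Relative to the genome level, Msl1 was at 4.84 at Becn1 and 3.09 at Ulk1, and Nsl1 at 9.16 and 3.16.

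Map1lc3b, the LC3 protein of the autophagosome membrane, and the receptor Sqstm1 both had Msl1 at more than 3 times the local level. Their Nsl1 values were above the local level but less than 3 times it. The Msl1 intervals of both genes include 3, as does the Nsl1 interval of Map1lc3b. With 1000 bases on each side the Msl1 ratio of Sqstm1 was 2.58, below 3. At Map1lc3b (chromosome 8, 124114368) 49 Msl1 reads were counted, 3.28 times the local level (2.42 to 4.36), and 41 Nsl1 reads, 2.43 times the local level (1.74 to 3.32). At Sqstm1 (chromosome 11, 50024329) 77 Msl1 reads were counted, the most of the 10 genes, at 3.65 times the local level (2.86 to 4.58), and 51 Nsl1 reads, 2.22 times the local level (1.65 to 2.93). The highest Msl1 window lay from 150 to 350 bases downstream in both genes, at 9.38 times the local level in Map1lc3b and 10.4 times in Sqstm1. The highest Nsl1 window lay upstream, between positions -250 and -50 at Map1lc3b and between -300 and -100 at Sqstm1, at 7.12 and 3.70 times the local level. At Sqstm1 the TSS of Mgat4b lies at position -63 on the other strand and Msl1 from 500 to 2000 bases upstream was at 0.915 times the local level. Sqstm1 lies in a region with high counts, and its local level was 2.84 times the genome level for Msl1 and 2.42 times for Nsl1. Relative to the genome level the values were 10.4 (Msl1) and 5.37 (Nsl1) at Sqstm1 and 6.59 and 4.32 at Map1lc3b.

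For Atg4b, the protease that trims the Map1lc3b family, the choice of TSS decided the value. The rule, the TSS with most protein-coding transcripts and the upstream one among equals, took 95648077 on chromosome 1, where a transcript of 6 exons begins. There 22 Msl1 reads were counted, 1.72 times the local level (1.08 to 2.62), and 17 Nsl1 reads, 1.44 times the local level (0.837 to 2.32), the lowest Nsl1 value of the 10 genes. Relative to the genome level the values at this TSS were 2.96 (Msl1) and 1.79 (Nsl1). At the second TSS, 3405 bases downstream at 95651482, a transcript of 13 exons begins, and the RefSeq promoter of Atg4b matched there. There were 64 Msl1 reads at the second TSS, 4.97 times the local level (3.81 to 6.4), and 48 Nsl1 reads, 3.81 times the local level (2.79 to 5.09). Thap4 begins at position -67 from it on the other strand. Msl1 was at 4.04 times the local level from 500 to 2000 bases upstream of the second TSS, on the side of Thap4, and at 1.19 times from 500 to 2000 bases downstream. The 1000 bases around the upstream TSS have a GC content of 43.5% with 12 CpG dinucleotides, and those around the second TSS 75.6% with 152. Over all protein-coding TSSs the medians were 54.8% and 41. With the second TSS in place of the upstream one, 7 of the 10 genes had a ratio of 3 or more in each library. This setting was chosen after seeing the data, and the values below keep the upstream TSS.

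**Figure D2:**
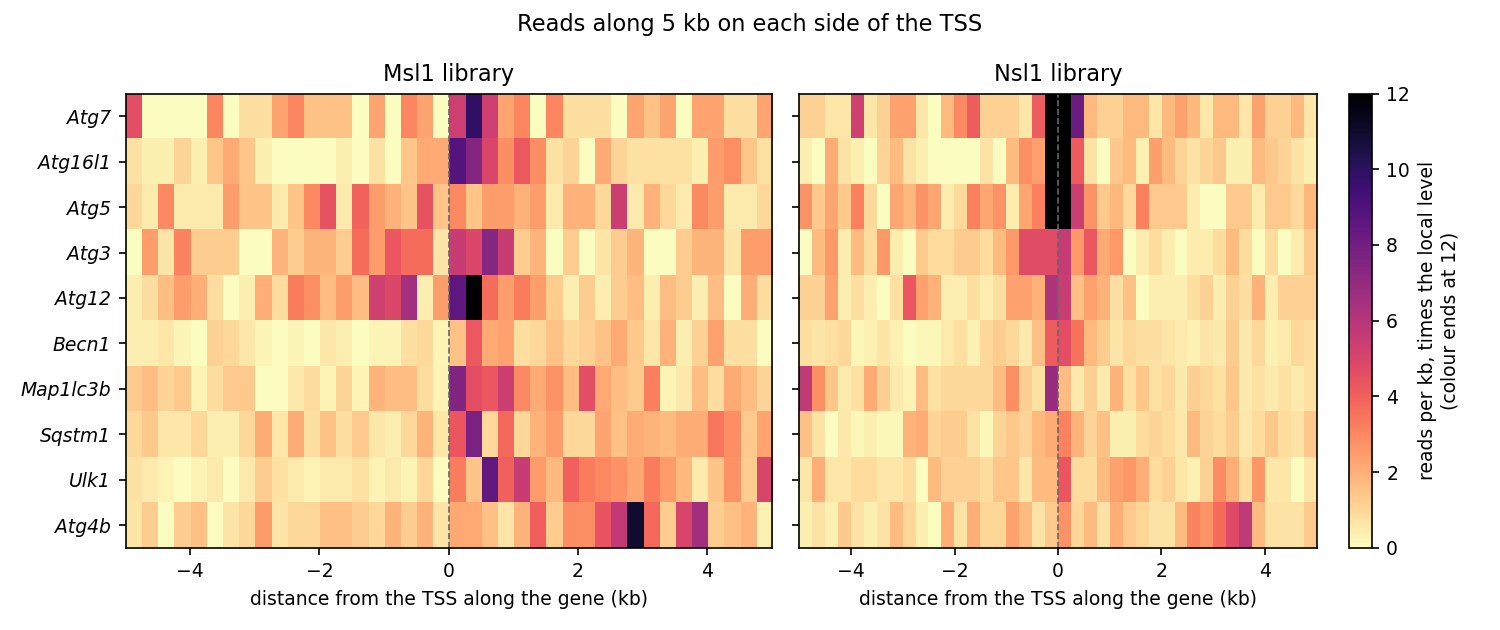
Reads per kb in bins of 250 bases along 5 kb on each side of the TSS, divided by the local level, for the 10 autophagy genes in the Msl1 library (left) and the Nsl1 library (right), ordered by the Nsl1 ratio at the TSS. The colour ends at 12, which 7 bins exceed. The Nsl1 reads of Atg7, Atg16l1 and Atg5 lie in the bins on both sides of the TSS, the Msl1 reads of most genes in the bins after it, and those of Atg4b around its second TSS.

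Next, the position of the reads relative to the TSS was compared. The highest Msl1 window of 200 bases began between 150 and 500 bases downstream of the TSS in 8 of the 10 genes, the others being Atg5 and Atg4b, and at 29.8% of all tested TSSs. The range was set by these genes after their values had been seen. The highest Nsl1 window began between positions -700 (Atg3) and 50 (Ulk1). Within 2 kb of the TSS, the share of Msl1 reads on the downstream side was 89.2% at Ulk1 (82.8 to 93.8), 83.0% at Atg16l1, 81.5% at Becn1, 80% at Map1lc3b, 74.4% at Sqstm1 and 73.6% at Atg7. In these 6 genes the exact binomial interval lay above 50%, as at 37% of the 21609 tested TSSs with reads of both libraries within 2 kb. It included 50% in the other 4 genes, Atg12 (57.5%), Atg3 (56.3%), Atg4b (60.2%) and Atg5 (44.0%), and lay below 50% at 5.13% of these TSSs. The Nsl1 share lay above 50% with its interval in none of the 10 genes and at 12.9% of these TSSs. It was highest at Ulk1 (60.7%, 49.7 to 70.9) and lay below 50% with its interval at Map1lc3b (34.6%, 25.6 to 44.6) and Atg16l1 (40.5%, 33.0 to 48.3), as at 9.53% of these TSSs.

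The 250 bases directly before the TSS separated the libraries further, a measure that was taken after the bins had been seen. The Msl1 library held 23 reads there in all 10 genes together, between 0 (Ulk1 and Atg7) and 6 (Atg12 and Atg16l1), and 306 Nsl1 reads were counted, between 4 (Atg4b) and 83 (Atg7). The median level was 0.591 times the local level for Msl1 and 5.47 times for Nsl1. Over all tested TSSs the medians were 1.09 and 1.72. Msl1 was below the local level in 7 of the 10 genes, where 46.7% of all tested TSSs were, and Nsl1 in none of the 10, where 27.9% were. The Msl1 values of these 7 genes rest on 0 to 3 reads each and carry no interval. The local Msl1 level was between 5.28 reads per kb (Atg7) and 21.1 reads per kb (Sqstm1). The bin moves with the placement of reads, and with reads left at their 5′ ends the sums were 38 and 276. The number of genes below the local level is not given for that setting.

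To compare how far the reads reached into the genes, the reads per kb between 500 and 2000 bases downstream were divided by those within 500 bases of the TSS. This downstream ratio was higher in the Msl1 library in all 10 autophagy genes, and in 65.8% of the 21327 TSSs with reads of both libraries. Its median was 0.770 for Msl1 and 0.349 for Nsl1 in the autophagy genes, and 0.833 and 0.667 over these TSSs. The downstream ratio was higher for Msl1 beyond counting error in 6 of the 10 genes, and in 25.5% of the 21236 TSSs where both ratios were above 0. Msl1 over Nsl1, the downstream ratio was 9.32 times as high at Atg7 (4.12 to 21.1), 5.72 times at Atg16l1 (3.09 to 10.6), 4.62 times at Atg5 (2.22 to 9.59), 3.80 times at Ulk1 (1.96 to 7.38), 2.79 times at Becn1 (1.56 to 4.97) and 2.20 times at Map1lc3b (1.2 to 4.04). At Atg3 (1.99, 0.949 to 4.19), Atg4b (1.37, 0.603 to 3.11), Sqstm1 (1.28, 0.728 to 2.25) and Atg12 (1.23, 0.610 to 2.49) the interval included 1. With 1000 bases on each side of the TSS, and the window from 1000 to 2000 bases downstream, the intervals of Ulk1 (1.23, 0.685 to 2.22) and Map1lc3b (1.17, 0.623 to 2.21) included 1 as well. In that wider setting the value was 4.49 at Atg7, 2.67 at Atg5 and 2.61 at Atg16l1. At Atg3 it was 0.979 (0.344 to 2.79), so there the downstream ratio was not higher for Msl1 in all 10 genes. With reads left at their 5′ ends the intervals of Atg12 (2.07, 1.02 to 4.19) and Sqstm1 (1.79, 1.02 to 3.14) lay above 1. These intervals use the normal approximation on the log scale. The second TSS of Atg4b is an exception to the pattern, with a downstream ratio of 0.240 for Msl1 (0.142 to 0.391) and 0.236 for Nsl1 (0.127 to 0.418).

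**Figure D3:**
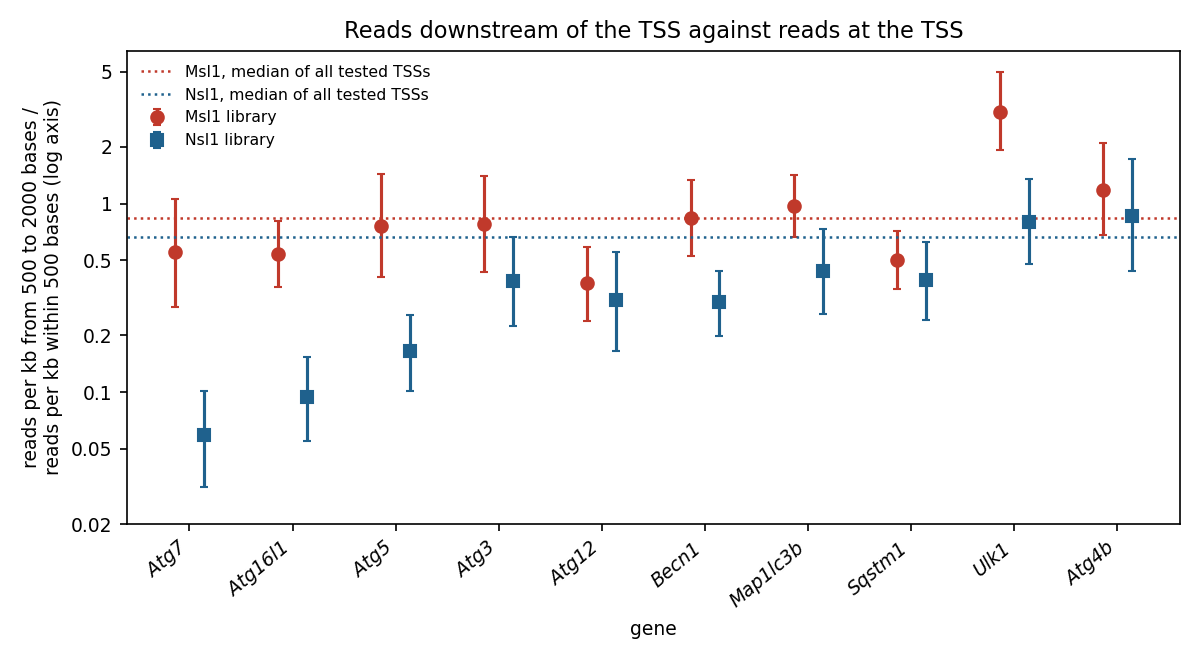
Reads per kb between 500 and 2000 bases after the TSS divided by reads per kb within 500 bases of it (log axis), for the autophagy genes in the order of the Nsl1 ratio at the TSS. Circles are Msl1, squares Nsl1, bars 95% intervals for counting error, and dotted lines the medians of all TSSs with reads of both libraries (0.833 and 0.667). Every Msl1 value is above the Nsl1 value of the same gene, and Ulk1 has the highest Msl1 value, 3.04.

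Since the reads at the TSS are the denominator of the downstream ratio, the downstream window was also compared with the local level. Msl1 from 500 to 2000 bases downstream was at 4.36 times the local level in Ulk1, 3.17 times in Map1lc3b, 2.86 times in Atg3 and 2.77 times in Atg16l1, and at 1.45 times in Becn1, the lowest of the 10 genes. Nsl1 was between 0.872 times (Sqstm1) and 1.87 times (Atg5) the local level. At Atg5 the libraries were close by this measure, with Msl1 at 1.96 times (24 reads, beside 25 Nsl1 reads). At Atg7 Msl1 was at 2.40 times (19 reads) and Nsl1 at 1.37 times (14 reads). From 2 to 5 kb downstream Msl1 was at 3.79 times the local level in Atg4b, a window that holds its second TSS, at 2.47 times in Ulk1 and at 2.04 times in Sqstm1. In the other 7 genes it was between 1.05 times (Atg12) and 1.74 times (Map1lc3b). Nsl1 in this window was at 2.29 times the local level in Atg4b and between 0.608 and 1.46 times in the other 9 genes. No value over all tested TSSs is given for these downstream levels, so whether they are usual for a protein-coding TSS was not tested.

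The libraries were then compared directly within 2 kb of the TSS, per read of each library. The ratio of Msl1 to Nsl1 was highest at Atg12 (146 and 75 reads, ratio 2.49, 1.87 to 3.33) and Ulk1 (139 and 89 reads, 1.99, 1.52 to 2.63). Sqstm1 (1.85), Map1lc3b (1.78) and Atg4b (1.73) followed with intervals that overlap that of Ulk1. It was 1.09 at Atg3 (0.796 to 1.48), 0.851 at Atg16l1 (0.664 to 1.09) and 0.753 at Becn1 (0.576 to 0.981). It was lowest at Atg5 (75 and 152 reads, 0.630, 0.471 to 0.836) and Atg7 (53 and 191 reads, 0.354, 0.256 to 0.483). The median of the 10 genes was 1.41, and that of the 14584 TSSs with at least 100 reads of both libraries together in this window was 1.28. No autophagy gene reached 2 times the latter median, as 4.44% of those TSSs did. Atg5 and Atg7 were at or below that median divided by 2, as were 4.96% of those TSSs, and only 0.261% of them had a lower ratio than Atg7. The intervals of Atg12 and Atg7, at opposite ends of this ratio among the 10 genes, do not overlap. The window of Atg12 also holds the start of Ap3s1, and 55 of its 146 Msl1 reads lay 500 to 2000 bases upstream, on the side of Ap3s1, beside 33 at the same distance downstream.

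When each library was first divided by its own local level, the ratio at the TSS was higher for Nsl1 at Atg7, Atg5, Atg16l1 and Becn1, where Msl1 was at 0.188 times (0.12 to 0.297), 0.227 times (0.14 to 0.367), 0.442 times (0.321 to 0.608) and 0.507 times (0.342 to 0.751) the Nsl1 value. It was higher for Msl1 at Sqstm1 (1.64, 1.15 to 2.35) and Atg12 (1.56, 1.03 to 2.36). At Ulk1, Atg3, Atg4b and Map1lc3b the interval of this comparison included 1. Within 500 bases of the TSS, 4 of the 10 genes thus had a higher ratio for Nsl1, 2 for Msl1, and 4 had no detectable difference. This split holds for that window only. Ulk1, in the last group, had a ratio of Msl1 to Nsl1 of 1.99 (1.52 to 2.63) within 2 kb. With reads left at their 5′ ends the intervals of Sqstm1 (1.38, 0.965 to 1.98) and Atg12 (1.27, 0.836 to 1.91) also included 1, and 0 genes had a higher ratio for Msl1. By the same criterion at the TSS, with reads moved, 17% of the 21327 TSSs with reads of both libraries had a higher ratio for Nsl1 and 12.7% for Msl1. The shares with reads left at their 5′ ends are not given.

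To place these genes in the wider pathway, 40 other genes of autophagy and its control were counted in the same way, all of which were found in the annotation, 6 of them under an older name. Msl1 was at 3 times the local level or more at 20 of the 40 and Nsl1 at 22 of the 40, both at 9, beside 23.3%, 24.2% and 11.6% of all tested TSSs. Of these genes Atg13 and Ambra1 lie close together and share part of their local windows, as do Wdr45 and Tfe3. The median ratio was 2.99 for Msl1 and 3.66 for Nsl1, close to the medians of the 10 genes (3.46 and 3.61). The highest Nsl1 ratios were those of Wdr45b (12.1, 10.2 to 14.2), a phosphoinositide-binding WIPI protein, Epg5 (10.8, 8.80 to 13.2), a tether for the fusion of autophagosomes with lysosomes, and Vmp1 (10.7, 9.03 to 12.5), a membrane protein of the endoplasmic reticulum. The highest Msl1 ratios were those of the transcription factor Foxo3 (5.44, 4.18 to 6.98), Ulk2 (4.86, 3.72 to 6.26), the paralog of Ulk1, and Wipi2 (4.53, 3.42 to 5.90).

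The lowest Nsl1 ratios were those of Rab7 (0.415, 0.152 to 0.905), a GTPase of late endosomes, Rb1cc1 (0.739, 0.270 to 1.62), a scaffold of the Ulk1 complex, and Gabarapl2 (1.06, 0.604 to 1.73), a relative of Map1lc3b. Rb1cc1 (0.884), Gabarap (1.24) and Rab7 (1.32) had the lowest Msl1 ratios. These values hold for the TSS used for each gene, and other annotated starts were not counted for the wider list. The Nsl1 ratios rest on 6 reads at Rab7, 6 at Rb1cc1 and 16 at Gabarapl2. The Nsl1 downstream ratio was 2.11 at Rab7, 1.33 at Rb1cc1 and 1.71 at Gabarapl2. Whether another start of these genes has a higher ratio was not tested. Msl1 to Nsl1 within 2 kb was highest at Foxo3 (3.10) and Rab7 (2.68) and lowest at Epg5 (0.444) and Atg4a (0.602). At none of the 40 was it as low as at Atg7, but the interval of Epg5 (0.322 to 0.603) overlaps that of Atg7 (0.256 to 0.483). The downstream ratio was higher in the Msl1 library in 31 of the 40, beside 65.8% of all TSSs with reads of both libraries.

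**Figure D4:**
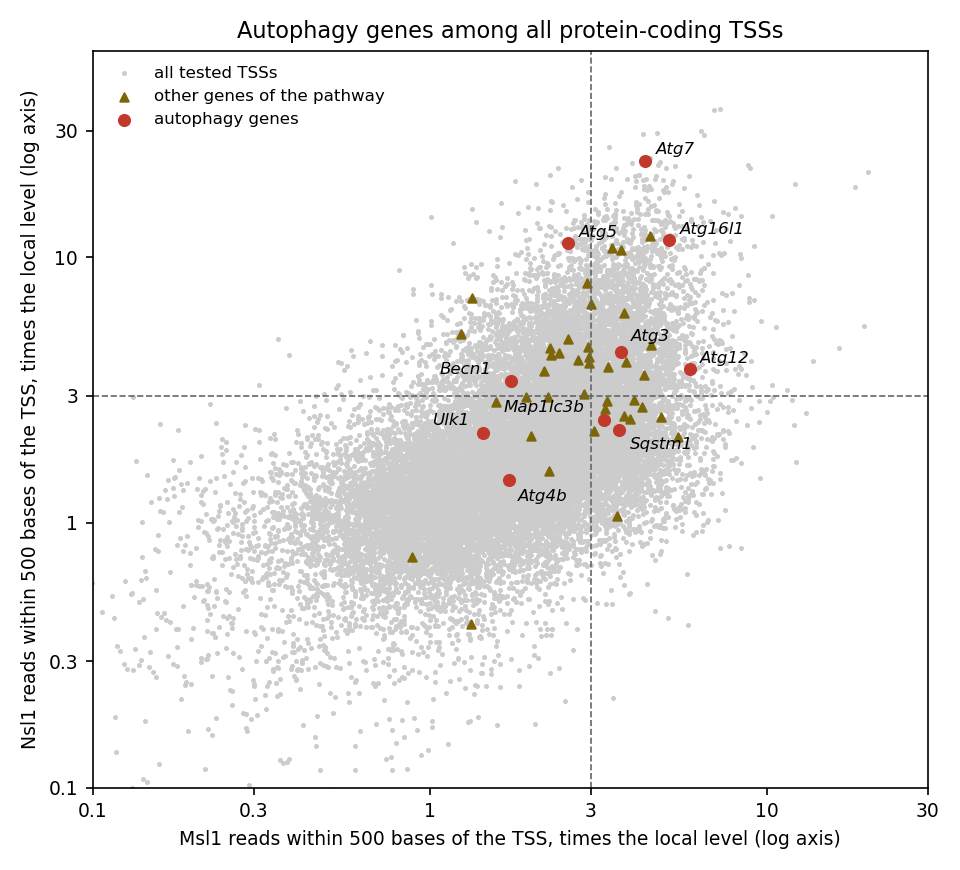
Reads within 500 bases of the TSS divided by the local level in the Msl1 library (horizontal, log axis) and in the Nsl1 library (vertical, log axis). Grey points are the 21327 tested TSSs with reads of both libraries, of which 21 fall outside the axes, triangles the 40 other genes of the pathway and red circles the 10 autophagy genes, and dashed lines mark a ratio of 3. Among the 10 genes Atg7, Atg16l1 and Atg5 have the highest Nsl1 values, and Atg12 has the highest Msl1 value of the 10 genes.

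The GC content of the 1000 bases around the TSS was between 57.1% and 64.4% in 8 of the 10 genes, and lower at Atg7 (48.7%) and at the upstream TSS of Atg4b (43.5%). Its median over all protein-coding TSSs was 54.8%. The number of CpG dinucleotides had a median of 73, beside 41 over all protein-coding TSSs. It was 41 at Atg7, 87 at Atg16l1 and 69 at Atg5, the genes with the highest Nsl1 ratios, and 12 at Atg4b, 92 at Ulk1 and 65 at Sqstm1, those with the lowest. The libraries were made with different kits and read lengths, and the part of base composition in the values was not tested.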

How the data were processed

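Single-end reads were base called with CASAVA 1.8.2 and mapped to mm9 with Bowtie 0.12.7 by the authors, who deposited 1 line per read with its position, its strand and an alignment score of 255 throughout, which was not used. The methods state that only unique reads were used. The library of Msl1 was made with a NEXTFlex kit and that of Nsl1 with a NEBNext kit.

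The reads were counted here in Python 3.11.15 (with scipy 1.17.1, pandas 2.3.3, numpy 2.4.6 and, for the plots, matplotlib 3.10.9). Mitochondrial reads were left out and 1 read was kept per position and strand, which left 81.7% of the nuclear reads for Msl1 and 95.4% for Nsl1. Reads were moved by 102 bases (Msl1) and 69 bases (Nsl1) to the middle of the fragment, whose length of 205 and 138 bases came from the correlation between the strands. Genes came from GENCODE M1 on mm9, with 1 TSS per gene. Coordinates count from 1. Ratios carry exact conditional binomial intervals. The windows at the 10 TSSs held 17 to 158 reads. RefSeq promoters (GRCm38.p6) were matched to mm9 by sequence, and 7 of the 10 genes had an entry.

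The genes, the wider list and the windows were chosen with earlier results of these data known. The text names the 10 genes, the protein-coding genes that begin within 2 kb of their TSSs, and of the wider list the 3 highest and 3 lowest ratios in each library and the 2 highest and 2 lowest ratios of Msl1 to Nsl1. It also names Atg13, Ambra1, Wdr45 and Tfe3, which were added after their values had been seen. The counting was checked on simulated reads. The Input used in the study was not used here.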

Additional observations from a re-analysis of the deposited data

How the results depend on the processing

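The median Nsl1 ratio of the 10 genes, 3.61, moved to 2.64 with a window of 1000 bases on each side of the TSS and to 4.84 with the genome level in place of the local level. The medians of the Msl1 ratio, of both downstream ratios and of Msl1 to Nsl1 within 2 kb were set beside a range, and stayed within it under each alternative run for them. The range averages the bounds of the counting intervals of the 2 genes in the middle. It is not an interval of the median. For the Msl1 downstream ratio, with a median of 0.770, the range was 0.421 to 1.42. Staying within so wide a range says little about how stable a median is. The number of genes at 3 times the local level or more, 6 in each library, was 5 in each with the wide window, where 18.0% (Msl1) and 13.7% (Nsl1) of all tested TSSs reached it. With the genome level it was 8 for Msl1 and 9 for Nsl1, beside 42.4% and 34.4% of all tested TSSs, and with a fold of 2 it was 7 and 9, beside 45.7% and 41.6%. Of the ratios of single genes, 20 in all, 13 left their interval with the genome level, 7 with the wide window and 1, Nsl1 at Becn1 (4.44), when the 2 kb around TSSs of other genes were left out of the local level. None did with all reads kept, with the most upstream TSS or with reads not moved, and none that was above 1 with its interval fell below 1 in a setting that was run. With the genome level Msl1 was at 10.4 at Sqstm1 and 4.84 at Becn1, and Nsl1 at 9.16 at Becn1. Local levels of Msl1 were between 0.710 and 2.84 times the genome level, so that setting also carries regional differences in counts. The number of genes with a higher Msl1 than Nsl1 ratio at the TSS beyond its interval, 2, was 0 with reads not moved and 3 with the wide window or the genome level, which added Map1lc3b. The corresponding 4 genes with a higher Nsl1 ratio had it in each of the 6 alternatives, which were chosen for these comparisons after seeing the data. The share of all tested TSSs that meet these criteria is not given for the alternatives. Whether these counts follow a change over all TSSs was therefore not tested. No paired analysis was possible because each antibody has 1 library. The depth limits the Msl1 values at Ulk1, Atg4b, Atg5, Atg7 and Atg3, which rest on 21 to 24 reads each.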

Other observations

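Other annotated starts of the autophagy genes, at least 1000 bases from the TSS used, had ratios below 2 in both libraries apart from the second TSS of Atg4b. The RefSeq promoter of Atg7 matched 27969 bases downstream of the TSS used, inside the gene, where 22 Nsl1 reads were counted, 1.84 times the local level (1.15 to 2.80), and 9 Msl1 reads, 1.16 times the local level (0.526 to 2.21). A short transcript of Atg5 begins 77797 bases downstream, with an Nsl1 ratio of 1.59 (0.952 to 2.49) and a Msl1 ratio of 0.616 (0.247 to 1.27). The third start of Atg4b, 16540 bases downstream, had ratios of 1.56 for Msl1 (0.994 to 2.33) and 1.09 for Nsl1 (0.610 to 1.81). A start inside Sqstm1, 7873 bases downstream, had ratios of 1.06 for Msl1 (0.672 to 1.60) and 0.880 for Nsl1 (0.536 to 1.36).

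At the second TSS of Atg4b, which Thap4 shares on the other strand, the Msl1 reads fell in separate maxima on both sides. In bins of 250 bases counted from the upstream TSS, Msl1 was at 11.0 times the local level from 2750 to 3000 bases, at 1.25 times from 3250 to 3500 bases, where the second TSS lies, and at 6.58 times from 3750 to 4000 bases. The higher of the maxima, with 35 reads beside 21, is on the side of Thap4. Within 2 kb of the second TSS the ratio of Msl1 to Nsl1 was 2.24 (1.73 to 2.92).

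Within 2 kb of the autophagy TSSs, reads that repeated a position and strand made up between 12.1% (Atg3) and 21.9% (Atg5) of the Msl1 reads and between 1.89% (Map1lc3b) and 14.0% (Atg7) of the Nsl1 reads. The Nsl1 share was highest at Atg7, which also had the highest Nsl1 ratio.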
